A study of Mus musculus with 19 samples.

Results

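The SVX set comprised the 4 endometrium libraries SVX 1 to SVX 4 of a mouse RNA sequencing series of 19 libraries, and it was compared with the 4 libraries INT 1 to INT 4, so that 8 of the 19 libraries entered the comparison. Members were chosen by the prefix of their columns in the count table, leaving out the columns that begin with SVX_VAS. All 8 libraries came from wild-type C57Bl/6 females 8–14 weeks old, mated with BALB/c males and killed at midday on day 3.5 pc, with the morning of the copulatory plug taken as day 0.5 pc. The INT females were mated with intact males. The SVX females were mated with surgically modified males, and the sources disagree on the surgery. The column prefix is SVX, whereas the titles of these 4 samples give a vasectomised male. The titles that give a seminal vesicle-deficient male stand on the 4 SVX_VAS columns, and those that give both operations stand on the 4 VAS columns. The set is therefore called by its prefix, and no result below is assigned to the loss of sperm or of seminal vesicle fluid. The remaining group, CONT, held 3 libraries from virgin females at estrus. Endometrium was scraped from the myometrium, and each library was made from a pooled sample whose number of females is not given in the sources used here.

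Seminal fluid carries sperm together with plasma made in the accessory glands of the male, and contact with it after mating is known to recruit leukocytes to the uterus and to shape the maternal immune response. By day 3.5 pc the mouse endometrium is under the influence of progesterone from the corpora lutea, with a brief addition of estrogen shortly before the embryo attaches. The luminal epithelium then loses the secretory products it makes under estrogen, the stroma proliferates, and natural killer (NK) cells, macrophages and small numbers of T cells, including gamma-delta T cells, reside in the tissue. The comparison asks whether the endometrium of the SVX set differed in this state.

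Total counts ranged from 12661266 to 13799614 in the SVX libraries and from 14201095 to 17420572 in the INT libraries. Amongst the 19 libraries, VAS 2 and VAS 3 stood apart, with scaling factors of 1.29 and 1.33 and with 0.0516% and 0.0573% of counts in the 3 genes Gm42418, Gm26917 and CT010467.1, which overlap ribosomal RNA, against 0.965–2.79% in the 8 SVX and INT libraries. VAS 2 and VAS 3 entered the comparison of SVX with INT through the shared estimate of the spread and through the filter on low values, which kept 17222 genes with them and 16949 without them. The tissue label held in all 8 libraries. The epithelial gene Epcam was at 87.6–135 CPM (counts scaled to a common library total) in SVX and 85.0–359 CPM in INT, the stromal gene Vim was at 651–725 and 489–793 CPM, and Pgr, which encodes the progesterone receptor, was at 405–536 and 405–575 CPM. Genes of smooth muscle, which would mark myometrium, were present in every library, and the summed level of 15 of them was 1374–1950 CPM in SVX and 1315–2437 CPM in INT.

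No gene was called different between the SVX and INT sets. Of 17222 genes tested with edgeR's quasi-likelihood test, 0 were higher and 0 were lower in SVX at an FDR of 0.05 or less and a fold of at least 1.5 (0% of genes tested in each direction), and the smallest FDR was 0.9997. At an unadjusted p under 0.05 there were 749 genes (4.35%), of which 613 (3.56%) were lower and 136 (0.79%) were higher in SVX. All 4 SVX libraries lay below all 4 INT libraries for 215 genes (1.25%), and above all 4 for 232 genes (1.35%). The DESeq2 Wald test called 0 genes higher and 3 lower in SVX, with a smallest FDR of 0.0403 (880 genes at an unadjusted p under 0.05). limma-voom called none, with 295 genes at an unadjusted p under 0.05. With sample quality weights limma-voom also called none, with a smallest FDR of 0.0507 and 5038 genes at that p. In edgeR fits with 1 library left out, 257–1594 genes were at that p and 0 were called. Because no gene was called, the individual genes below are described by their values in the 8 libraries, and none of them is reported as changed. Where no source says that the pools of a group came from separate matings, a p-value measures only the spread between these samples.

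The 3 genes called by the DESeq2 Wald test were high in INT 1 and INT 2 alone. Apobec2, a member of the cytidine deaminase family, was at 107, 24.3, 1.14 and 1.33 CPM in INT 1 to INT 4 and at 0.779, 0.708, 0.658 and 1.22 CPM in SVX 1 to SVX 4. The predicted gene Gm1965 was at 17.5, 7.56, 0.285 and 0.560 CPM in INT and at 0–0.236 CPM in SVX. Sprr1a, which encodes a small proline-rich protein of the epithelial envelope, was at 28.3, 21.7, 0.0570 and 0.140 CPM in INT and at 0–0.234 CPM in SVX. In each case INT 3 and INT 4 were near the SVX libraries. Without INT 1 and INT 2 the logFC of Apobec2 moved from -5.29 to -0.54.

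The precision of the comparison differed from gene to gene. The median standard error of the logFC was 0.179. The 95% confidence interval of the logFC lay within 1.5-fold in either direction for 9680 genes (56.2%) and within 2-fold for 13576 genes (78.8%). For these genes a larger difference between the sets lies outside the interval. For the remainder the interval reached past that fold.

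The INT libraries differed from each other more than the SVX libraries did. The median SD of log2 CPM over genes was 0.201 in INT and 0.135 in SVX, and 12503 genes (72.6%) had the larger SD in INT. An SD above 1 on the log2 scale was found for 577 genes in INT and for 129 genes in SVX, or for 40 genes without SVX 1. On the first principal component of the 8 libraries, which held 65% of the variance, INT 1 and INT 2 scored -73.3 and -52.8, INT 3 and INT 4 scored 22.8 and 23.0, and SVX 2 to SVX 4 scored 26.6–29.4. SVX 1 lay between, at -3.44. The sets did not differ on this component beyond the spread between libraries (exact two-sided permutation test over 70 splits, p = 0.171, where the smallest possible p is 0.0286), nor on the second (p = 0.743) or the third (p = 0.571) by the same exact test. The genes with the largest weight toward INT 1 were epithelial products such as Clca1, Sprr2a3, Lcn2 and Sprr1a, and those with the largest weight in the other direction included Atp6v0d2, Prss35 and Cyp26a1.

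**Figure D1:**
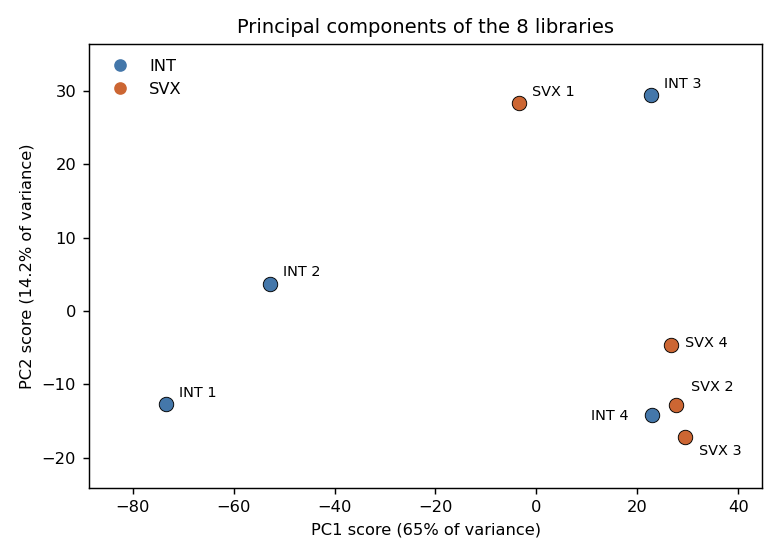
Scores of the 4 INT (blue) and 4 SVX (orange) libraries on the first principal component (horizontal axis, 65% of variance) and the second (vertical axis, 14.2% of variance) of log2 CPM over the genes tested; each point is 1 library. INT 1 and INT 2 lie far to the left, SVX 1 lies beside INT 3 on the vertical axis, and INT 4 lies amongst SVX 2, SVX 3 and SVX 4.

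For several genes of T cells, and of gamma-delta T cells in particular, all 4 INT libraries lay above all 4 SVX libraries, INT 3 and INT 4 included. Cd3e, which encodes a chain of the CD3 complex (chr9:44998743-45009590, minus strand, GRCm38), was at 2.57, 2.84, 2.40 and 3.57 CPM in INT 1 to INT 4 and at 1.01, 1.18, 0.512 and 1.003 CPM in SVX 1 to SVX 4. The lowest INT library was thus above the highest SVX library, and the logFC was -1.61 ± 0.42 (SE; edgeR, unadjusted p = 0.00156, not called). Cd3g, another CD3 chain, was at 4.20–4.62 CPM in INT and 1.89–2.71 CPM in SVX (logFC -0.92 ± 0.40). Trbc2, a constant region of the T cell receptor beta chain, was at 2.72–3.72 CPM in INT and 1.42–2.29 CPM in SVX (logFC -0.80 ± 0.34). The order of the libraries within each set differed between these genes, which are given here because their sets separated. For Cd3d, a further CD3 chain gene, the sets overlapped.

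The receptor genes of gamma-delta T cells showed the same separation. Trdc, the constant region of the delta chain (chr14:54142851-54148868, plus strand), was at 6.58, 7.94, 7.07 and 6.30 CPM in INT and at 4.83, 3.62, 3.88 and 3.94 CPM in SVX (logFC -0.78 ± 0.30). Tcrg-C1, a constant region of the gamma chain (chr13:19214103-19217024, plus strand), was at 4.16, 5.04, 2.51 and 3.29 CPM in INT and at 1.48, 0.786, 1.02 and 1.07 CPM in SVX (logFC -1.77 ± 0.47, unadjusted p = 0.00176). The gamma constant regions are near copies of each other, so reads could be divided amongst them in counting. Blk, a Src family kinase that gamma-delta T cells making interleukin-17 share with B cells (chr14:63372837-63417187, minus strand), was at 5.52, 5.73, 3.76 and 3.08 CPM in INT and at 1.40, 1.02, 0.512 and 1.43 CPM in SVX (logFC -2.04 ± 0.46, unadjusted p = 0.000434). Its mean was 4.53 ± 1.31 CPM in INT and 1.09 ± 0.430 CPM in SVX (SD, n = 4 in each). Cd163l1, a scavenger receptor of gamma-delta T cells (chr7:140218267-140231145, plus strand), was at 20.6, 20.6, 16.7 and 15.1 CPM in INT and at 7.09, 7.63, 4.68 and 6.66 CPM in SVX (logFC -1.48 ± 0.42).

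Further genes used by these cells lay apart in the same way. Cxcr6, a chemokine receptor of tissue-resident lymphocytes, was at 14.3–19.1 CPM in INT and 9.03–11.9 CPM in SVX. Bcl11b, a transcription factor that sets T cell identity, was at 3.34–3.93 CPM in INT and 1.22–2.28 CPM in SVX. Lat, the adaptor that links the T cell receptor to its signaling cascade, was at 2.97–4.92 CPM in INT and 1.26–2.18 CPM in SVX (logFC -1.22 ± 0.32). Il18r1, a chain of the interleukin-18 receptor, was at 27.9, 20.5, 9.75 and 10.2 CPM in INT and 6.15–7.31 CPM in SVX, so that INT 1 and INT 2 were the highest for this gene.

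**Figure D2:**
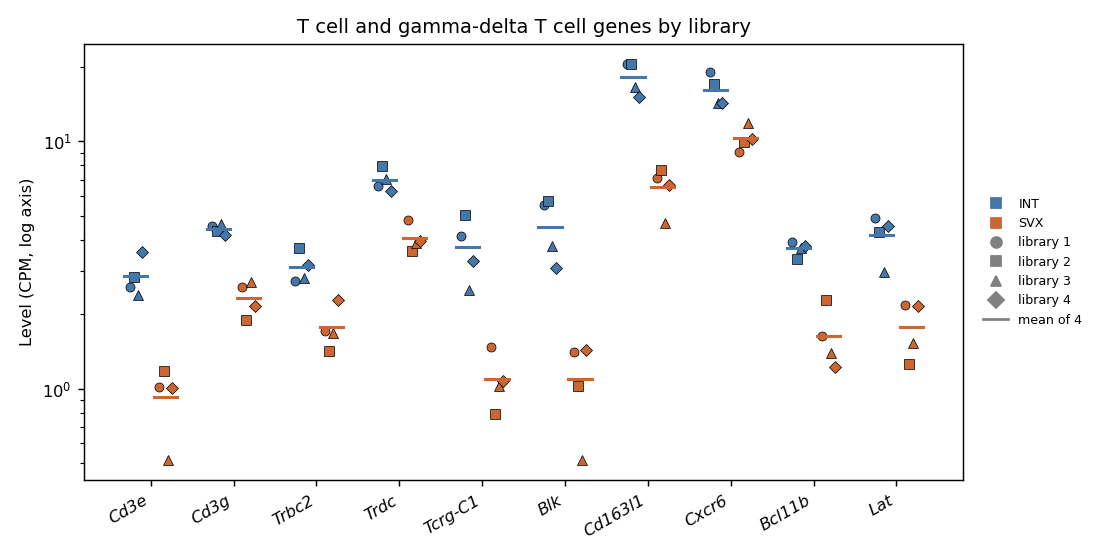
Level in CPM (log axis) of 10 T cell and gamma-delta T cell genes in each INT (blue) and SVX (orange) library; marker shapes give the library number and the horizontal bars the mean of 4. For each of the 10 genes the lowest INT library lies above the highest SVX library, for example 15.1 against 7.63 CPM for Cd163l1. The figure shows only genes that separate in this way. All SVX libraries lay below all INT libraries for 1.25% of all genes tested and for 3 of 19 tested T and NK cell genes.

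Amongst the lists for T and NK cells, gamma-delta T cells, T cell signaling and regulatory T cells, 28 genes fell under the filter on low values but had at least 10 counts in the 8 libraries together. After scaling to CPM, all SVX libraries were below all INT libraries for 10 of them and above for 0, and 18 overlapped. Of all 9669 untested genes with that many counts, 1.34% were below and 2.14% above in the same sense. The gamma-delta and signaling lists, with 4 of 6 and 1 of 3 such genes below, were chosen after values had been seen. For the T and NK cell list 4 of 7 were below, and for the regulatory T cell list 1 of 12. The values that follow are unscaled counts. Cd8a had 29, 21, 47 and 66 counts in INT 1 to INT 4 and 12, 14, 9 and 14 counts in SVX 1 to SVX 4. Icos, a costimulatory receptor, had 39, 35, 32 and 33 counts in INT and 10, 19, 14 and 18 in SVX. Il23r, the receptor for interleukin-23, had 19–33 counts in INT and 9–15 in SVX. In each of these the INT counts were all above the SVX counts, also after scaling for the lower totals of the SVX libraries. Tcrg-V6, the variable region of a gamma-delta subset known from the uterus, had 10–20 counts in INT and 3–5 in SVX, and Trac, the constant region of the alpha chain, had 22–34 and 5–14. Amongst those that overlapped, Cd3d had 10–31 counts in INT and 4–14 in SVX, Cd2 had 19–38 and 9–35, and Cd28 had 30–50 and 21–37. The inhibitory receptors Tigit and Lag3 had 16–28 and 17–37 counts in INT and 17–34 and 17–34 in SVX.

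Not every T cell gene lay apart. Cd4 was at 1.51, 3.34, 2.91 and 3.78 CPM in INT and 1.48–1.89 CPM in SVX, so that INT 1 overlapped the SVX libraries. Zap70, a receptor-proximal kinase shared with NK cells, was at 5.80–8.33 CPM in INT and 4.98–7.67 CPM in SVX. Lck was at 8.09–15.5 and 11.0–12.3 CPM. Foxp3, which marks regulatory T cells, was at 11.1–12.5 CPM in INT and 10.8–11.7 CPM in SVX, and was close to this level at estrus too, but was at 0.280 and 0 CPM in VAS 2 and VAS 3. Its level was above that of Cd4 in every INT and SVX library. Ctla4, another regulatory T cell gene, had 1–9 counts in INT and 2–4 in SVX. Whether the Foxp3 counts come from regulatory T cells was not tested, so they do not measure these cells. Of 7 tested regulatory T cell genes, 1 was higher in SVX at an unadjusted p under 0.05 (0.79% of all genes), and their median logFC was 0.09. That gene was Tnfrsf4, the costimulatory receptor OX40, at 2.34–2.80 CPM in INT and 2.99–3.87 CPM in SVX, so that the sets did not overlap (logFC 0.40 ± 0.16). Ptprc, the pan-leukocyte gene CD45, was at 126–152 CPM in INT and 114–181 CPM in SVX.

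Over 19 tested genes of a list for T and NK cells, 4 were lower and 1 was higher in SVX at an unadjusted p under 0.05, against 3.56% and 0.79% of all genes, and the median logFC was 0.21 and was -0.08 without INT 1 and INT 2. All SVX libraries were below all INT libraries for 3 of the 19 and above for 1 (1.25% and 1.35% of all genes). A second list, for gamma-delta T cells, was assembled after the values of its leading genes had been seen, and its counts are therefore only a description. Of its 11 tested genes, 7 were lower at an unadjusted p under 0.05 and 8 had all SVX libraries below all INT libraries (1.25% of all genes). The median logFC was -0.80 with all 8 libraries and -0.57 without INT 1 and INT 2, and Cd3e, Bcl11b and Cd163l1 had a logFC of -1.68, -1.20 and -1.29 in that fit. Of 9 tested T cell signaling genes, a list also assembled after values had been seen, 3 were lower at an unadjusted p under 0.05 (3.56% of all genes) and the median logFC was -0.08. All SVX libraries were below all INT libraries for 2 of these 9 genes (1.25% of all genes). The same held for 0 of the 7 tested regulatory T cell genes. In the gamma-delta list the libraries overlapped for Sox13, Maf and Zbtb16, which other cells of the uterus also use. The summed level of the 11 genes was 384–463 CPM in INT and 369–456 CPM in SVX. In whole endometrium, fewer cells of a type and less RNA in each cell cannot be told apart.

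NK cell receptor genes mostly had a logFC above 0, the opposite direction to the T cell genes, and none was called. Cd7, a surface protein of NK and T cells (chr11:121036747-121039418, minus strand), was at 2.04, 2.84, 4.28 and 3.22 CPM in INT 1 to INT 4 and at 4.67, 5.82, 10.02 and 7.67 CPM in SVX 1 to SVX 4 (logFC 1.18 ± 0.35, unadjusted p = 0.00399, not called). Klra13-ps, a pseudogene of the Ly49 receptor cluster, was at 5.75–9.87 CPM in INT and 12.1–18.3 CPM in SVX (logFC 0.87 ± 0.28), and Klrb1c, which encodes NK1.1 (chr6:128778485-128789215, minus strand), was at 4.24–7.13 CPM in INT and 7.17–11.3 CPM in SVX (logFC 0.69 ± 0.30). All SVX libraries were above all INT libraries for these 3 genes. For Klrb1c, however, SVX 1 exceeded INT 3 by only a small margin. Klrb1c shares 413 of its exon bases (13.9%) with Gm44511 on the same strand. Cd7 shares 122 (10.8%) with Gm11775 on the opposite strand. Reads in these stretches cannot be assigned with certainty.

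Amongst 15 tested killer cell lectin-like receptor genes, 14 had a logFC above 0, 4 were higher at an unadjusted p under 0.05 (0.79% of all genes) and the median logFC was 0.44. All SVX libraries were above all INT libraries for 3 of them (1.35% of all genes), namely Klra13-ps, Klrb1c and Klre1, and below for 1 (1.25%). That gene, Klrg2, was at 3.82–4.31 CPM in INT and 2.67–3.74 CPM in SVX (logFC -0.41 ± 0.45). Amongst these receptors the Klra genes of the Ly49 cluster are close copies of each other, so reads of 1 Klra gene can count toward another. The other NK genes overlapped between the sets. Ncr1, the activating receptor NKp46, was at 8.17, 9.33, 10.3 and 12.3 CPM in INT and at 9.81, 13.1, 15.7 and 18.8 CPM in SVX. Gzmb, a cytotoxic granule protease, was at 19.3–39.3 CPM in INT and 36.0–44.6 CPM in SVX, and Eomes, a transcription factor of NK cells, was at 3.48–6.62 and 4.44–6.88 CPM. Il15, the cytokine on which uterine NK cells depend, was at 22.8–39.5 CPM in INT and 24.4–35.7 CPM in SVX.

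Genes of MHC class I and of peptide loading mostly had a logFC below 0, of a smaller size, and none was called. H2-Q7, a nonclassical class I gene (chr17:35439155-35443773, plus strand), was at 76.1, 82.2, 56.1 and 59.3 CPM in INT and at 49.8, 53.8, 39.5 and 50.7 CPM in SVX (logFC -0.50 ± 0.12, unadjusted p = 0.000741, not called). H2-Q4 was at 108, 107, 78.7 and 98.5 CPM in INT and at 73.6–75.8 CPM in SVX (logFC -0.39 ± 0.10). Both genes kept the SVX libraries below the INT libraries, and INT 3 was the INT library nearest to them for each. The H2-Q genes are near copies, so their counts are uncertain individually. H2-Q4 also shares 496 of its exon bases (19.1%) with Gm11131 on the opposite strand.

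Tap1, a subunit of the peptide transporter, was at 105, 92.3, 63.0 and 70.8 CPM in INT and at 55.5, 63.6, 58.7 and 64.3 CPM in SVX (logFC -0.45 ± 0.14). Psmb9, an immunoproteasome subunit that starts on the opposite strand beside Tap1 on chromosome 17, was at 42.4, 34.2, 22.4 and 28.2 CPM in INT and at 21.4–24.4 CPM in SVX (logFC -0.47 ± 0.15). The exons of these 2 genes share 212 bases on opposite strands, and the strand setting of the counting is not given, so reads there cannot be assigned with certainty. For both genes INT 3 overlapped the SVX libraries. Over 23 tested genes of this family, gathered by symbol after values had been seen, 9 were lower at an unadjusted p under 0.05 (3.56% of all genes), and the median logFC was -0.34 and was -0.15 without INT 1 and INT 2. B2m, the light chain of class I, overlapped between the sets at 328–340 CPM in SVX and 321–498 CPM in INT. H2-D1 was at 325–376.7 CPM in SVX and 377.1–679 CPM in INT, so that SVX 1 and INT 3 nearly met.

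Estrogen-driven products of the epithelium were very high in INT 1 and INT 2, and were low in INT 3, INT 4 and SVX 2 to SVX 4. Ltf, lactotransferrin, was at 2157, 643, 27.4 and 45.3 CPM in INT 1 to INT 4 and at 273, 33.0, 20.04 and 15.5 CPM in SVX 1 to SVX 4. C3, the central complement component and an estrogen-regulated uterine gene, was at 3989, 1445, 129 and 170 CPM in INT and at 187, 159, 145 and 176 CPM in SVX. Clca1, a secreted regulator of mucus and chloride channels, was at 1893, 583, 2.91 and 6.93 CPM in INT and at 26.9, 1.97, 1.97 and 1.22 CPM in SVX. At estrus Ltf was at 1875–2848 CPM, a range that held INT 1 alone of the 8 libraries, and SVX 1 was the highest SVX library for Ltf, C3 and Clca1. The summed level of 23 estrogen response genes was 14011, 6117, 1487 and 1575 CPM in INT 1 to INT 4 and 1535–1986 CPM in SVX. High sums were not limited to INT, with 12770 CPM in SVX_VAS 2, 3171 CPM in SVX_VAS 4 and 5162 CPM in VAS 1. The other SVX_VAS and VAS libraries were at 1437–2133 CPM.

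The mean levels of these genes differed widely between the sets, and so did the libraries within INT. The logFC of Ltf was -3.07 ± 1.6, that of C3 was -3.10 ± 1.15 and that of Clca1 was -6.28 ± 2.38, none of them called. Without INT 1 and INT 2 the logFC became 1.23, 0.16 and 0.71, above 0 in each case. Of 23 tested genes of the estrogen response list, 11 were lower in SVX at an unadjusted p under 0.05 (3.56% of all genes), and 0 had the SVX libraries wholly below the INT libraries (1.25% of all genes). The median logFC of the list was -2.18 with all libraries and 0.31 without INT 1 and INT 2. For comparison, the median over all genes tested was -0.01.

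Genes of the interferon response, of sterol synthesis and of the luminal epithelium were also high in INT 1 and INT 2. Mx1, an interferon-induced GTPase, was at 46.7, 52.7, 4.39 and 5.18 CPM in INT and at 6.15, 6.29, 6.14 and 5.37 CPM in SVX (logFC -2.18 ± 0.70, and 0.32 without INT 1 and INT 2). Of 30 interferon response genes, 9 were lower at an unadjusted p under 0.05, against 3.56% of all genes here and in the lists that follow, and their median logFC was -0.35 with all libraries and 0.07 without INT 1 and INT 2. Hmgcs1, which makes HMG-CoA for sterol synthesis, was at 159, 142, 48.6 and 48.1 CPM in INT and at 68.1, 41.3, 43.2 and 40.4 CPM in SVX. Of 26 genes of cholesterol and fatty acid synthesis 9 were lower in the same sense, and the median moved from -0.60 to 0.11. Of 20 luminal epithelium markers 5 were lower, with a median of -0.56 and of 0.06 without INT 1 and INT 2. The summed level of these 20 epithelial markers was 4283 and 3645 CPM in INT 1 and INT 2, 1484 and 2203 CPM in INT 3 and INT 4, and 1627–2072 CPM in SVX. None of the 20 was at 0, and the part of epithelial content in these results was not tested.

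**Figure D3:**
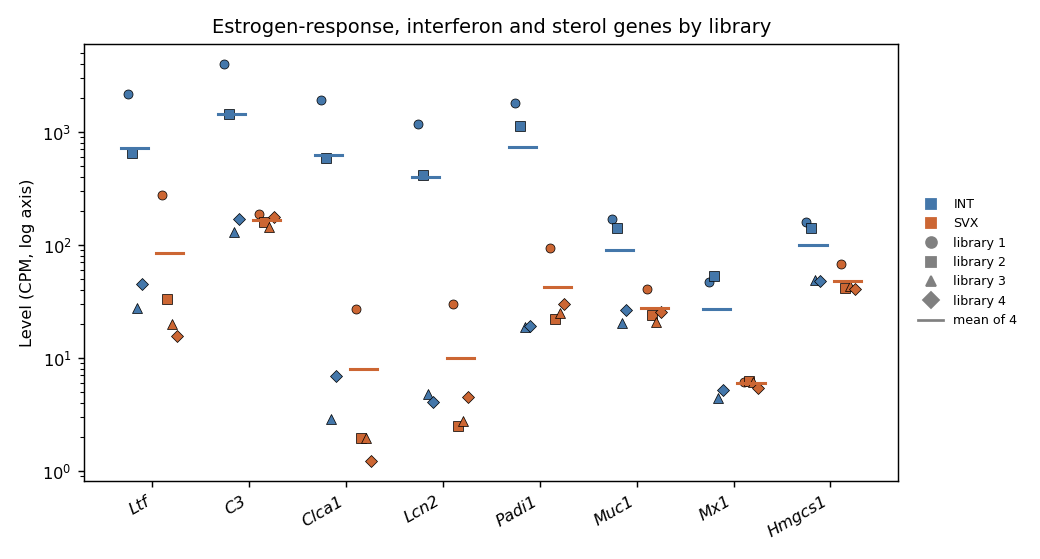
Level in CPM (log axis) of 6 estrogen-response genes, of the interferon-induced gene Mx1 and of the sterol synthesis gene Hmgcs1 in each INT (blue) and SVX (orange) library; marker shapes give the library number and the bars the mean of 4. INT 1 (circle) and INT 2 (square) lie far above the other libraries, for example at 1893 and 583 CPM for Clca1, whereas INT 3 and INT 4 lie near the SVX libraries, for example at 4.39 and 5.18 CPM for Mx1, just below the lowest SVX library at 5.37 CPM.

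Within the SVX set, SVX 1 and SVX 4 differed from SVX 2 and SVX 3 in a small group of epithelial and gland genes. Prss28 and Prss29, which encode the implantation serine proteinases secreted by the uterine glands, lie side by side on chromosome 17. Their promoters are shown because both genes followed the same libraries. The sequences are those of RefSeq on GRCm38.p6 and run from 250 bases before to 50 bases after each gene start. Capitals mark every stretch of at least 12 bases that both sequences hold in common on the same strand.
Prss28, chr17:25308396-25308695, plus strand: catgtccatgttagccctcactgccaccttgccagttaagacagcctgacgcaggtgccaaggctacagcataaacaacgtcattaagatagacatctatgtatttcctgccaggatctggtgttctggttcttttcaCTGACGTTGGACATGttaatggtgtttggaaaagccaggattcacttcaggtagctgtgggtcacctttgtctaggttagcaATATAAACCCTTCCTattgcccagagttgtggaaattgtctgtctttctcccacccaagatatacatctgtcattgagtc
Prss29, chr17:25318404-25318703, plus strand: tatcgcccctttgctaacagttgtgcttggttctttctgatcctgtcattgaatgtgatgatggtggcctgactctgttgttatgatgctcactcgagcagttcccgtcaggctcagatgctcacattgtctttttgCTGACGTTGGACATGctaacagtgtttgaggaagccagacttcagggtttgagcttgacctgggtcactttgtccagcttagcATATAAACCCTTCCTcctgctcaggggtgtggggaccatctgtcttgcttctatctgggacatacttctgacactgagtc

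There were 2 such stretches of 15 bases each, CTGACGTTGGACATG and ATATAAACCCTTCCT. The first begins 112 bases before the start of Prss28 and 113 bases before that of Prss29, and the second, which has the form of a TATA box, begins 30 bases before the start of either gene. Searched on both strands, each stretch was present in 2 of 32851 promoters of that length, namely these 2. Without gaps, 118 of 300 positions (39.3%) held the same base in both windows. A shared stretch is a description of the sequence and not evidence of a factor bound there.

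Prss28 was at 139, 8.10, 4.46 and 106 CPM in SVX 1 to SVX 4 and at 6.66, 4.03, 108 and 0.490 CPM in INT 1 to INT 4. Prss29 was at 211, 16.0, 9.22 and 245 CPM in SVX and at 11.0, 6.995, 186 and 0.980 CPM in INT. Both were thus high in SVX 1, SVX 4 and INT 3 and low in the other 5 libraries. Each set held high and low libraries, and the logFC was 1.10 ± 1.28 for Prss28 and 1.22 ± 1.30 for Prss29 (edgeR, unadjusted p = 0.405 and 0.36).

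A few further epithelial genes were high in the same libraries. Atp6v0d2, a subunit of the vacuolar proton pump, was at 51.9, 1.49, 1.46 and 26.4 CPM in SVX and at 1.29, 1.07, 51.7 and 2.10 CPM in INT. Cyp26a1, which degrades retinoic acid, was at 73.9, 4.40, 2.71 and 55.1 CPM in SVX and at 3.25, 4.16, 103 and 1.96 CPM in INT. Wnt7b was at 29.8, 1.02, 1.39 and 11.8 CPM in SVX and at 11.9, 14.4, 27.8 and 1.54 CPM in INT, so that for this gene INT 1 and INT 2 were also high. Amongst the 25 genes with the largest SD of log2 CPM within SVX, at a mean of at least 10 CPM, 23 were highest in SVX 1. Only Prss29, highest in SVX 4, and Gm23935, highest in SVX 3, were exceptions.

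SVX 1 also stood apart in proliferation and in muscle genes. Mki67, a marker of cycling cells, was at 577, 366, 314 and 315 CPM in SVX and at 252, 582, 575 and 389 CPM in INT, so that SVX 1 was level with INT 2 and INT 3. Myh11, the smooth muscle myosin heavy chain, was at 103, 195, 239 and 220 CPM in SVX and at 439, 188, 86.5 and 180 CPM in INT. The library with the most Mki67 in the SVX set had the least Myh11. The summed level of the 15 smooth muscle genes was 1374 CPM in SVX 1 and 1729–1950 CPM in SVX 2 to SVX 4, and its part in other results was not tested. Over 30 cell cycle genes the median logFC was -0.21 and was -0.33 without INT 1 and INT 2. Of the 30 genes 29 had a logFC below 0, against 8951 of 17222 over all genes, and 0 were at an unadjusted p under 0.05 (4.35% of all genes). Over 15 smooth muscle genes the median was -0.16 and was 0.33 without INT 1 and INT 2.

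**Figure D4:**
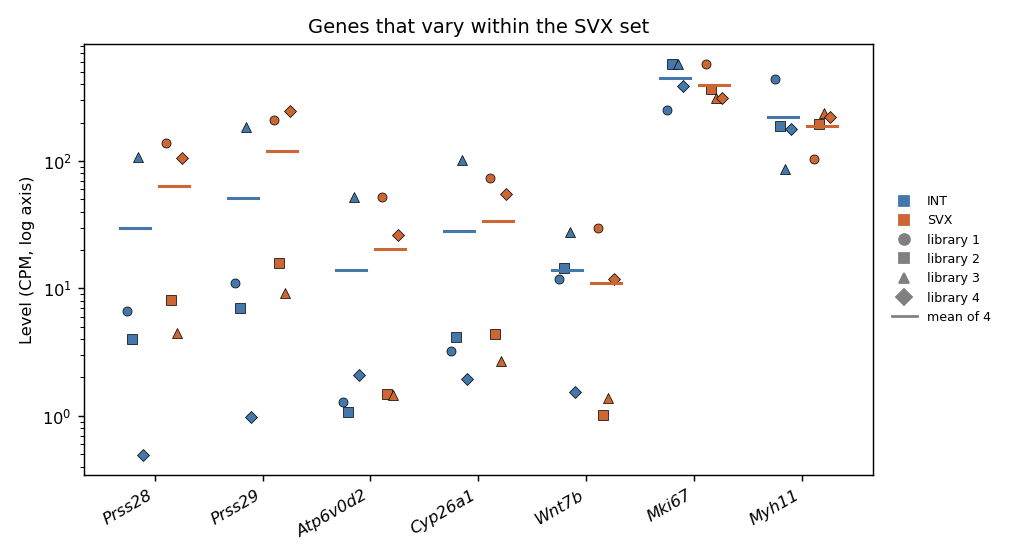
Level in CPM (log axis) of 5 genes that vary strongly within the SVX set, of the proliferation gene Mki67 and of the smooth muscle gene Myh11 in each INT (blue) and SVX (orange) library; marker shapes give the library number and the bars the mean of 4. For Prss28, Prss29, Atp6v0d2 and Cyp26a1, SVX 1, SVX 4 and INT 3 lie well above the other libraries.

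Genes of the progesterone response and of the implantation window overlapped between the sets for the most part. Of 26 progesterone response genes 0 reached an unadjusted p under 0.05 in either direction (4.35% of all genes). Their median logFC was 0.24 and was -0.14 without INT 1 and INT 2. Ihh, the epithelial signal to the stroma under progesterone, was at 23.6, 24.1, 48.8 and 47.0 CPM in INT and at 35.5–40.0 CPM in SVX (logFC 0.07 with a 95% confidence interval from -0.72 to 0.85). Lrp2, the endocytic receptor megalin, was at 1216, 1042, 943 and 2180 CPM in INT and at 1034, 2371, 2258 and 1812 CPM in SVX. Lif, the cytokine required for implantation, was at 43.9, 23.2, 9.98 and 8.19 CPM in INT and at 9.35, 15.6, 22.4 and 21.8 CPM in SVX. The sets overlapped for each of these 3 genes. Of 25 genes of the implantation window 3 were lower at an unadjusted p under 0.05, namely Klf4, Btc and Sgk1, and 0 were higher (3.56% and 0.79% of all genes).

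Steroid receptors overlapped between the sets. Esr1, the estrogen receptor, was at 701–749 CPM in SVX and 655–886 CPM in INT (logFC -0.11, 95% confidence interval from -0.61 to 0.38), and the logFC of Pgr was -0.10 (from -0.65 to 0.46). Over 14 steroid receptors and cofactors the median logFC was 0.02, with 0 at an unadjusted p under 0.05 (4.35% of all genes). Hand2, the stromal transcription factor under progesterone, was at 60.5–82.0 CPM in SVX and 36.2–93.9 CPM in INT. The median logFC was 0.12 over 18 stromal, 0.08 over 26 vascular growth and 0.03 over 36 extracellular matrix genes. Of 19 endothelial genes 1 had a logFC below 0, and their median was 0.21 with all libraries and 0.02 without INT 1 and INT 2. In each of these groups 0 genes were at an unadjusted p under 0.05 (4.35% of all genes). All SVX libraries were above all INT libraries for 1 gene each of the endothelial, vascular growth and extracellular matrix lists (1.35% of all genes).

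Myeloid and humoral immune genes overlapped between the sets for the most part. Adgre1, the macrophage marker F4/80, was at 31.5, 33.5, 75.0 and 38.8 CPM in SVX and at 30.6–51.1 CPM in INT, with SVX 3 the highest of the 8. Itgax, the integrin CD11c, was at 24.8–41.5 CPM in SVX and 20.3–30.1 CPM in INT. Itgam, the integrin CD11b, was at 43.9, 18.4, 4.39 and 4.06 CPM in INT and 4.44–7.75 CPM in SVX, again with INT 1 and INT 2 the highest. Of 22 macrophage and dendritic cell genes only Itgam reached an unadjusted p under 0.05 (4.35% of all genes). Of 9 neutrophil genes 2 were lower at that p, and of 5 eosinophil and mast cell genes 2 were lower and 1 was higher. The shares over all genes were 3.56% lower and 0.79% higher. The median logFC of these 2 lists was -0.14 and -0.05, and was 0.02 and 0.03 without INT 1 and INT 2. Over 9 B and plasma cell genes the median logFC was -0.85 and was -0.44 without INT 1 and INT 2, with 1 lower at an unadjusted p under 0.05 (3.56% of all genes). Jchain, the joining chain of polymeric antibodies, was at 17.8–67.3 CPM in INT and 9.82–28.8 CPM in SVX. Il1a, an alarm cytokine, was at 33.3 CPM in INT 1, 0.840–3.66 CPM in the other INT libraries and 0.393–1.56 CPM in SVX.

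**Figure D5:**
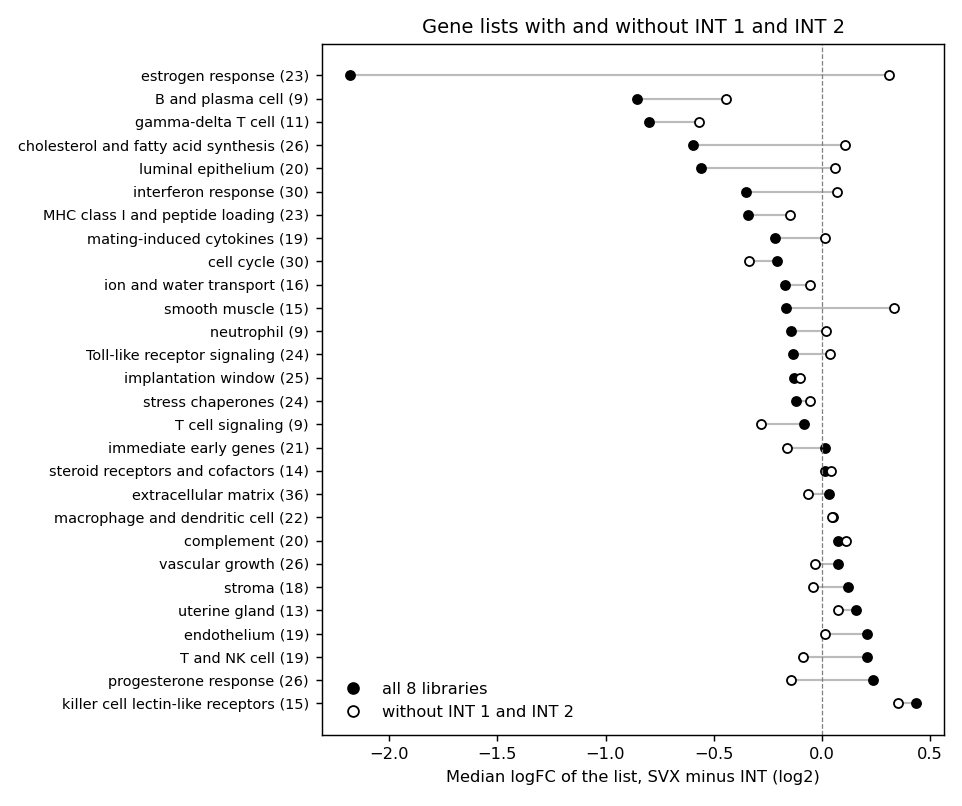
Median logFC of SVX minus INT (horizontal axis, log2) of each gene list with at least 9 genes tested (number in brackets), with all 8 libraries (filled) and without INT 1 and INT 2 (open). The estrogen response list moves from -2.18 to 0.31, whereas the gamma-delta T cell list moves from -0.80 to -0.57 and the killer cell lectin-like receptors from 0.44 to 0.35.

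The genes of smallest p outside these groups ranged in logFC from -1.34 to 0.60. Sphkap, an anchoring protein for protein kinase A, had the smallest p of all, at 10.3, 9.83, 6.79 and 4.27 CPM in INT and 2.91–3.19 CPM in SVX (logFC -1.34 ± 0.29, unadjusted p = 0.000259). Galnt10, a glycosyltransferase that starts mucin-type glycans, was at 51.3–56.4 CPM in INT and 42.6–45.5 CPM in SVX, and Necap2, a protein of clathrin coats, was at 41.7–49.8 and 36.7–39.0 CPM. In the other direction the calcium sensor gene Ncald was at 20.1–23.1 CPM in INT and 24.9–28.4 CPM in SVX. Rian, a maternally expressed imprinted noncoding RNA, was at 64.1–75.7 CPM in INT and 81.4–101 CPM in SVX (logFC 0.35 ± 0.12). These 5 genes each had non-overlapping sets, as 2.6% of all genes did in either direction. Ttc4, Mios, Agk and 2610021A01Rik were also amongst the 10 of smallest p that were higher, each with a logFC of 0.16–0.19, as were Gm44153 at 0.39 and the axonemal dynein gene Dnah7c at 0.60, whose libraries overlapped.

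Amongst immediate early genes, Nr4a3, an orphan nuclear receptor, was at 5.22, 2.39, 4.79 and 6.09 CPM in INT and at 11.8, 10.9, 15.1 and 7.74 CPM in SVX (logFC 1.30 ± 0.45, unadjusted p = 0.011, not called). Of 21 such genes only Nr4a3 was at an unadjusted p under 0.05 (4.35% of all genes). Atf3, a stress-induced transcription factor, was at 2.27–5.18 CPM in INT and 5.43–6.07 CPM in SVX, and with Nr4a3 it made 2 of 21 genes with all SVX libraries above all INT libraries (1.35% of all genes). Egr1 was at 22.2–90.1 CPM in INT and 33.6–81.0 CPM in SVX, and Fos was at 15.8–48.6 and 18.2–29.99 CPM.

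Transcripts that mark sperm, seminal vesicle and embryo gave few counts or overlapped between the sets. Of 14 seminal vesicle genes only Tgm4 was tested, at 9.89–12.0 CPM in SVX, 9.96–11.5 CPM in INT and 10.6–11.5 CPM at estrus. The main secretory genes Svs2, Svs4 and Svs5 had 0 counts in all 8 libraries, which allows up to 3 counts, or 0.170–0.234 CPM depending on the library. The sperm protamine gene Prm1 had 1–10 counts in INT and 2–9 counts in SVX, and Acr, the acrosomal protease, had 10–22 and 10–21. Odf2, a sperm tail gene that also serves the centrosome of other cells, was at 85.9–106 CPM in INT and 92.7–106 CPM in SVX. Ceacam10, a seminal vesicle gene, had 0–7 counts in INT and 0–16 in SVX, with the most in SVX 3. The pluripotency gene Pou5f1 had 0 counts in INT and 0–1 count in SVX, and Cdx2 had at most 1 count in any of the 8 libraries. Sox2, Elf5 and Tfap2c, which are not limited to the embryo, had more counts and overlapped, at 4–19, 20–25 and 17–75 in INT and 3–27, 16–24 and 23–40 in SVX. The 8 genes of the Y chromosome examined had at most 2 counts in any library. Of the 24 blastocyst genes, 7 were tested, amongst them Krt8, Gata6 and Pdgfra, which the uterus itself expresses. Of these 7, 0 reached an unadjusted p under 0.05 (4.35% of all genes). A difference in embryonic RNA between the sets was not detectable at this depth.

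Against the mean of the other sets mated with modified males, SVX_VAS and VAS, 0 genes were higher and 0 lower in SVX by the same edgeR test (0% of genes tested), with a smallest FDR of 0.8872. limma-voom with sample quality weights called 2301 higher and 209 lower, and the other alternatives called 0. At an unadjusted p under 0.05 there were 789 genes (4.58%), of which 163 (0.946%) were higher and 626 (3.63%) were lower, and there were 424 (2.5%) without VAS 2 and VAS 3. Prss29 was amongst the 10 genes of smallest p that were higher, with 8.89, 3.11, 2.37 and 8.09 CPM in SVX_VAS 1 to SVX_VAS 4 and 2.76, 7.09, 37.5 and 51.6 CPM in VAS 1 to VAS 4 (logFC 3.35, unadjusted p = 0.00759). Its high level came from SVX 1 and SVX 4. Lgmn, a lysosomal protease, was at 113–133 CPM in SVX, 98.8–119 CPM in SVX_VAS and 69.4–115 CPM in VAS. Blk was amongst the 10 lower genes, at 0.773–2.27 CPM in SVX_VAS and 1.77–9.28 CPM in VAS. Cnnm4, a magnesium transporter, had the smallest p amongst those lower, at 18.01–19.2 CPM in SVX and 20.6–29.2 CPM in the other 8 libraries.

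The T cell genes were not called in this comparison either. Cd163l1 was at 3.38, 9.98, 8.70 and 5.002 CPM in SVX_VAS and at 12.3, 33.4, 13.5 and 7.63 CPM in VAS, and its logFC of SVX minus these sets was -0.71 (edgeR, unadjusted p = 0.071). The SVX values of 4.68–7.63 CPM thus lay within those of SVX_VAS. Trdc was at 2.13–4.55 CPM in SVX_VAS and 4.31–12.2 CPM in VAS. All 3 sets share the INT libraries as their reference, so their differences from INT are not independent. At an unadjusted p under 0.05, 339 genes (1.97%) differed between SVX_VAS and INT and 1831 genes (10.6%) between VAS and INT, with 0 called in either.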

How the data were processed

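Endometrial RNA was measured by stranded total RNA sequencing in 19 libraries. The deposited table holds whole-number counts per gene, which the authors made by trimming with AdapterRemoval version 2, aligning to GRCm38/mm10 with STAR and counting with featureCounts; the versions of STAR and featureCounts and the strand setting are not given in the sources used here. The authors pooled tissue, and the sources used here do not give the number of females in a pool. Counts of the 37 mitochondrial genes were 0 throughout.

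The filter kept 17222 of 49089 genes, those that reached 3 CPM in 3 or more of the 19 libraries. Symbols matched 48349 gene IDs. Counts were scaled by TMM and fitted for all 5 groups together with edgeR 4.0.16 (glmQLFit, glmQLFTest; R 4.3.3). P-values were adjusted by Benjamini-Hochberg over all genes tested (FDR), and a call required 0.05 or less with a change of 1.5-fold or more. CPM values are TMM-scaled. Errors of logFC are standard errors (SE), and intervals are 95%. Principal components used log2 CPM with a prior count of 2. Where no count was found, the limit is 3 counts and covers counting error only. limma 3.58.1 and DESeq2 1.42.0 served as alternatives. Only the edgeR fit of SVX against INT was tried on simulated counts. Figures were drawn with matplotlib 3.10.9.

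The genes named were the members of the gene lists and, since fewer than 10 genes were called, the 10 of smallest p in each direction. The genes called by DESeq2, those of largest weight on the first principal component and those of largest SD within SVX were also named, after their values were seen. The set, the lists and the tests were chosen with earlier results of these data known. The lists for gamma-delta T cells, T cell signaling, killer cell lectin-like receptors and MHC class I were added after values had been seen. A further listed gene is included in the list counts and is not reported here.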

Additional observations from a re-analysis of the deposited data

Results flagged for a closer look

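SVX 1 lay far from the other 3 SVX libraries in 6 of 78 groups of 4 libraries searched, and SVX 4 in 1; by chance about 3.9 of 78 would be marked, since the limit marks about 1 group in 20. The first principal component score of SVX 1 was -3.44, against 26.6–29.4 in the others. Its median log2 CPM was 7.63 for the stroma list (7.94–7.98 in the others), 5.80 for smooth muscle (6.18–6.19), 4.91 for the interferon response (5.12–5.16), 6.62 for stress chaperones (6.15–6.16) and 5.18 for cholesterol and fatty acid synthesis (4.62–4.66). SVX 4 had a median log2 CPM of 5.36 for the implantation window list, against 5.53–5.55 in the others. The gene lists share libraries, so these values are not independent of each other.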

How the results depend on the processing

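Both counts of SVX against INT remained 0 under every alternative tried except the DESeq2 Wald test, which called 3 genes lower; the cause was not tested. The alternatives were other scalings and filters, limma-voom with and without quality weights, glmTreat, thinning, only the groups compared, and leaving out each library in turn (0–0 higher and 0–0 lower); the smallest FDR over all of them ran from 0.0403 to 1. Genes at an unadjusted p under 0.05 numbered 749 in the reported fit, 1013 without VAS 2 and VAS 3, 118 without INT 1 and INT 2, 257, 308, 1594 and 1328 without INT 1 to INT 4 in turn, 923, 412, 365 and 417 without SVX 1 to SVX 4 in turn, 295 by limma-voom and 5038 by limma-voom with sample quality weights. Leaving out those pairs of libraries was chosen after seeing the data. Against SVX_VAS and VAS, limma-voom with sample quality weights called 2301 genes higher and 209 lower, whereas the other alternatives called 0; the cause was not tested. The 789 genes of that comparison at an unadjusted p under 0.05 became 315–2348 with 1 library left out, the most without VAS 4. Without INT 1 and INT 2, C3 (0.16), Clca1 (0.71), Ltf (1.23) and Mx1 (0.32) turned from below to above 0. The first principal component gave an exact p of 0.171 under the other settings and 0.0571–0.457 with 1 library left out. Replicate numbers are shared by the groups. The same-number correlations of deviations were 0.326, -0.25, 0.0237 and 0.154, and those of unlike numbers ran from -0.608 to 0.487. A pairing by number was thus not seen, but so few values cannot exclude one. With the replicate block 0 genes were called in either direction (784 at an unadjusted p under 0.05). Thinning to the smallest total gave 724 genes at an unadjusted p under 0.05 by edgeR. Whether depth limits genes of a few CPM, such as the T cell genes, more than other genes was not tested.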

Other observations

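Nr4a3 was also high in some other libraries mated with modified males. It was at 29.9, 20.5 and 28.0 CPM in SVX_VAS 1, SVX_VAS 3 and SVX_VAS 4 and at 13.3 CPM in VAS 4. It was lower in SVX_VAS 2, at 6.60 CPM, and in VAS 1 to VAS 3, at 4.40–5.31 CPM, and was at 1.01–1.82 CPM at estrus. Ggh, gamma-glutamyl hydrolase of folate metabolism, was singled out after its values were seen. It was at 81.3, 28.9, 31.2 and 48.0 CPM in SVX 1 to SVX 4 and at 75.5 CPM in INT 3 against 25.8–26.8 CPM in the other INT libraries, so that its high libraries were those of Prss28 and Prss29. Il11, a decidual cytokine under the filter on low values, had 39 counts in SVX 1 and 64 in INT 3, against 5–14 in the other 6 libraries. Ereg, an EGF family ligand, had 13 counts in SVX 1 and 52 in INT 3, against 1–5 elsewhere in the 8 libraries. Il17a had 18 counts in INT 1 and 0–2 in the other 7 libraries.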
